A study of Danio rerio with 12 samples.

Results

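The question addressed here is how the response of the heart to amputation of the ventricular apex differed between nkx2.5-/- fish and non-transgenic wild-type fish, across all measured genes. The comparison uses 8 of the 12 RNA-seq libraries of the study. MT7 and MT0 are apices of adult nkx2.5-/- fish (vu179 allele) that carry Tg(hsp70l:nkx2.5-EGFP), 7 days post-amputation (dpa) and uninjured. WT7 and WT0 are the matching apices of non-transgenic wild-type fish. The remaining 4 libraries, TG7 and TG0, come from wild-type fish with the same transgene and are given beside the results. All fish were 3 to 18 months old and had been heat-shocked as embryos at 21 somites, which allows nkx2.5-/- embryos to survive through the transgene. MT fish therefore differ from WT fish in the mutation, the transgene, and the embryonic pulse of Nkx2.5 together, and these cannot be told apart in MT against WT. The hsp70l promoter is heat-inducible, and the study describes transgene expression after amputation in transgenic fish. Transcripts peaked in the first hours, and the protein was seen in nuclei a day after amputation. Both had declined by 2 dpa, before the injured apices were collected. Each library was made from a pool of 6 apices, with 2 libraries per group. Pooling hides the spread between fish, and p-values measure the spread between pools.

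Zebrafish replace amputated ventricular muscle. After injury, the epicardium (the outer layer of the heart) and endocardium are activated, fibroblasts deposit a transient matrix rich in collagen and fibronectin, leukocytes enter the wound, and cardiomyocytes at the wound edge reduce their sarcomeres and divide. Nkx2.5 is a homeodomain transcription factor required for the formation of the heart and for the maintenance of ventricular identity.

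The injury response of a genotype is the log2 fold change of 7 dpa over uninjured apices, and the response difference is the MT response minus the WT response. The same number equals the MT-WT difference at 7 dpa (MT7 minus WT7, the injured level) minus that in uninjured apices (MT0 minus WT0, the starting level). A negative response difference can therefore mean that MT was already higher before injury, that MT was lower after injury, or both. All values are from 1 edgeR quasi-likelihood fit of the 12 libraries over 19014 tested genes of 38049 listed. A gene was called when its Benjamini-Hochberg adjusted p-value (FDR) was below 0.05 and its absolute log2 fold change above 0.5. Levels are read counts scaled to the TMM-adjusted library size (CPM), which are given for replicate 1 and then replicate 2, and errors of log2 values are standard errors.

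Total counts per library ranged from 14234818 to 24544150. The biological coefficient of variation between the 2 pools of a group was 0.219 in MT7, 0.223 in MT0, 0.121 in WT7, and 0.318 in WT0, the highest of the 6 groups. nkx2.5 had 205.2 and 310.9 CPM in MT7 and 450.1 and 345.2 CPM in MT0, against 219.7 and 184.5 CPM in WT7 and 269.6 and 271.0 CPM in WT0. Its response difference was -0.20 ± 0.28 (FDR 0.744), and its level is no check of the genotype, since reads of the mutant gene and of the transgene cannot be separated in these counts. Cardiomyocyte markers summed to 32680 and 45490 CPM in MT7 and 78200 and 54840 CPM in MT0, against 73990 and 68450 CPM in WT7 and 97700 and 89350 CPM in WT0. MT7 replicate 2 held transcripts of skeletal muscle (mylpfa, 81.8 CPM, against 1.08 CPM in MT7 replicate 1) and of liver (apoa1b, 80.2 CPM, against 1.86 CPM), which reached at most 1.04 CPM in MT0, WT7, and WT0. TG7 held such transcripts too, those of skeletal muscle in replicate 1 only by the list median. The skeletal muscle list had median log2 CPM of 2.84 and -0.56 in TG7, against -0.66 and -0.18 in TG0. The liver and pancreas list had 2.06 and 1.40 in TG7, against -2.77 and -1.41 in TG0. The part of these tissues in the results was not tested beyond leaving out MT7 replicate 2.

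The response to amputation differed between MT and WT at 375 genes (1.97% of those tested). At 287 genes (1.51%), the response was lower in MT than in WT, and at 88 genes (0.463%) it was higher, with a median of -0.04 over all 19014 genes. An unadjusted p-value below 0.05 was found for 3677 of the 19014 genes. Counts of list members at that p-value, given below, are to be read beside that share. Over all genes, DESeq2 called 1188 and limma-voom 185, and list counts by these tools are to be read beside those totals. The 287 genes had a median injury response of -0.30 in MT, 0.52 in TG, and 1.55 in WT. The 88 genes had a median response of 1.22 in MT, 0.19 in TG, and -1.26 in WT. The sign of each difference is set by the selection.

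Counts of list members with 1 library left out, given below, are to be read beside the count over all genes in the same fit. The count over all genes depended on single libraries. It was 131 without MT7 replicate 1, 241 without MT7 replicate 2, 427 without MT0 replicate 1, 222 without MT0 replicate 2, 103 without WT7 replicate 1, 64 without WT7 replicate 2, 202 without WT0 replicate 1, and 1933 without WT0 replicate 2. All 375 genes kept their sign and a log2 fold change above 0.5 in size in each of these 8 fits, and 56 were called in all of them. The excess of lower over higher responses was not kept throughout, as 923 lower and 1010 higher genes were called without WT0 replicate 2.

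Most of the response differences had their counterpart in the uninjured heart. Of the 287 genes with a lower response in MT, 216 (75.3%) differed between MT and WT only before injury by the call, and all 216 were higher in MT0 than in WT0. Their median MT-WT difference was 2.06 (log2) in uninjured apices and 0.02 at 7 dpa, and 165 of them lay within 0.5 of WT at 7 dpa. Of the 88 genes with a higher response in MT, 51 (58%) differed only before injury, all lower in MT0, with a median of -2.16 in uninjured apices and -0.08 at 7 dpa. For comparison, 25.3% of all tested genes were called in MT0 against WT0 and 10.2% in MT7 against WT7 (4.6% higher and 5.62% lower in MT7). Both comparisons use the libraries of the response difference itself, so that these classes describe the called genes and are not further tests. As more genes were called in MT0 against WT0, its adjusted limit allowed larger p-values, which favours the classes with a starting level difference only. The fit also gave each gene 1 spread for all 6 groups, although the coefficient of variation was 0.121 in WT7 and 0.318 in WT0. The effect of this on these classes was not tested. The direction in these classes was largely set by the sign of the response difference. The classes with only a starting level difference held 267 genes together, or 71.2% of the calls, and between 57.7% and 80.6% when 1 library was left out.

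**Figure D1:**
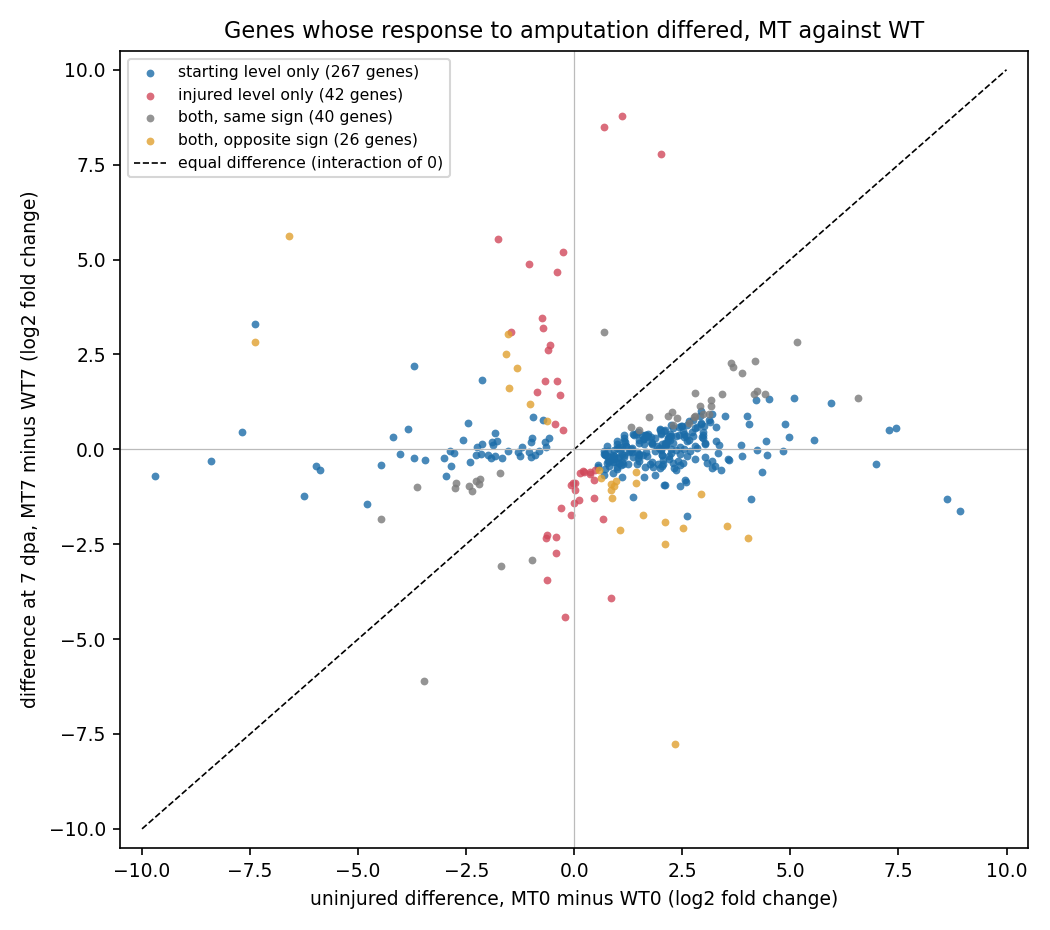
MT-WT difference in uninjured apices (x axis, log2 fold change) against that at 7 dpa (y axis, log2 fold change) for the 375 genes whose response differed. Most points lie along the horizontal zero line (267 genes with a starting level difference only), 42 lie near the vertical zero line, and distance from the dashed line is the response difference.

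A difference at 7 dpa alone was called at 24 genes with a lower and 18 genes with a higher response in MT. The 24 genes had a median MT-WT difference of -1.31 at 7 dpa and 0.02 before. The 18 genes had medians of 3.14 at 7 dpa and -0.51 before, and 12 of the 18 carry provisional symbols. Differences at both times were called at 66 genes, with the same sign at 40 and opposite signs at 26. No response difference arose from a pair of differences that were both below the call. This was largely set by the calls and is no finding. The response difference has a larger standard error than its parts. Its adjusted limit on p was also stricter, as 1.97% of genes were called, against 25.3% and 10.2%.

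The library medians give the levels behind the classes with a starting level difference only. As these classes were selected on MT0 against WT0, a gap between MT0 and WT0 is set by the selection. Over the 216 genes higher in MT0 alone, the median log2 CPM was 4.68 and 4.68 in MT7, 4.83 and 4.87 in MT0, 4.64 and 4.66 in WT7, and 2.99 and 3.29 in WT0. The WT0 medians thus lay lowest, and the MT0 medians were above those of WT7. This holds for the median and not for each gene. For col1a2 and postnb MT0 lay below WT7, and for atf3 MT0 lay above WT7. In the transgenic fish the 216 genes had medians of 4.63 and 4.52 in TG7 and 3.89 and 3.92 in TG0. TG0 thus lay between MT0 and WT0, the groups on which the genes were selected. Over the 51 genes lower in MT0 alone, the medians were 3.24 and 3.18 in MT7, 2.05 and 2.15 in MT0, 3.34 and 3.21 in WT7, and 4.68 and 4.19 in WT0, with 2.83 and 2.92 in TG0. A WT0 level apart from the TG0 level as well as from the MT0 level belongs to many of the results below. TG0 differed from WT0 at 4270 genes (22.5%) and TG7 from WT7 at 216 genes (1.14%), of which 0.847% of all genes were higher and 0.289% lower in TG7.

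By direction of movement, 5.56% of all tested genes rose and 6.48% fell in MT after amputation, and 13.2% rose and 11% fell in WT. Of the genes with a response difference, 148 of the 287 genes rose in WT after amputation without a called change in MT. A further 63 fell in MT without a called change in WT, 29 fell in MT and rose in WT, and 46 rose in both, less so in MT. Of the 88 genes, 40 fell in WT without a call in MT, 34 rose in MT without a call in WT, and 13 rose in MT and fell in WT. The 2 remaining genes, 1 in each direction, were called in neither response.

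The response of MT was also set against that of TG, which carry the transgene without the mutation. (MT7-MT0)-(TG7-TG0) was called at 268 genes (1.41%), 66 higher (0.347%) and 202 lower (1.06%). It shares MT7 and MT0 with the MT-WT response difference. Of the 287 genes, 79 were also called lower against TG, and 253 had a negative sign. Of the 88 genes, 15 were also called higher against TG, and 63 had a positive sign. This contrast is given for examples of each pattern. It was -3.88 ± 0.40 (FDR 0.00574) for tbx1, a factor of the outflow tract, -3.61 ± 0.47 (FDR 0.0131) for the stress-induced repressor atf3, and -1.42 ± 0.21 (FDR 0.0162) for the tropomyosin tpm2. The matrix genes col1a2 and postnb had -1.19 ± 0.20 (FDR 0.0265) and -1.80 ± 0.33 (FDR 0.0315), each smaller in size than the MT-WT value. No call was made for the clock repressor nr1d2b, at -0.04 ± 0.31 (FDR 0.972), for the zinc finger gene znf326, at 0.18 ± 0.18 (FDR 0.699), or for top2a of chromosome segregation, at -1.09 ± 0.52 (FDR 0.357).

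**Figure D2:**
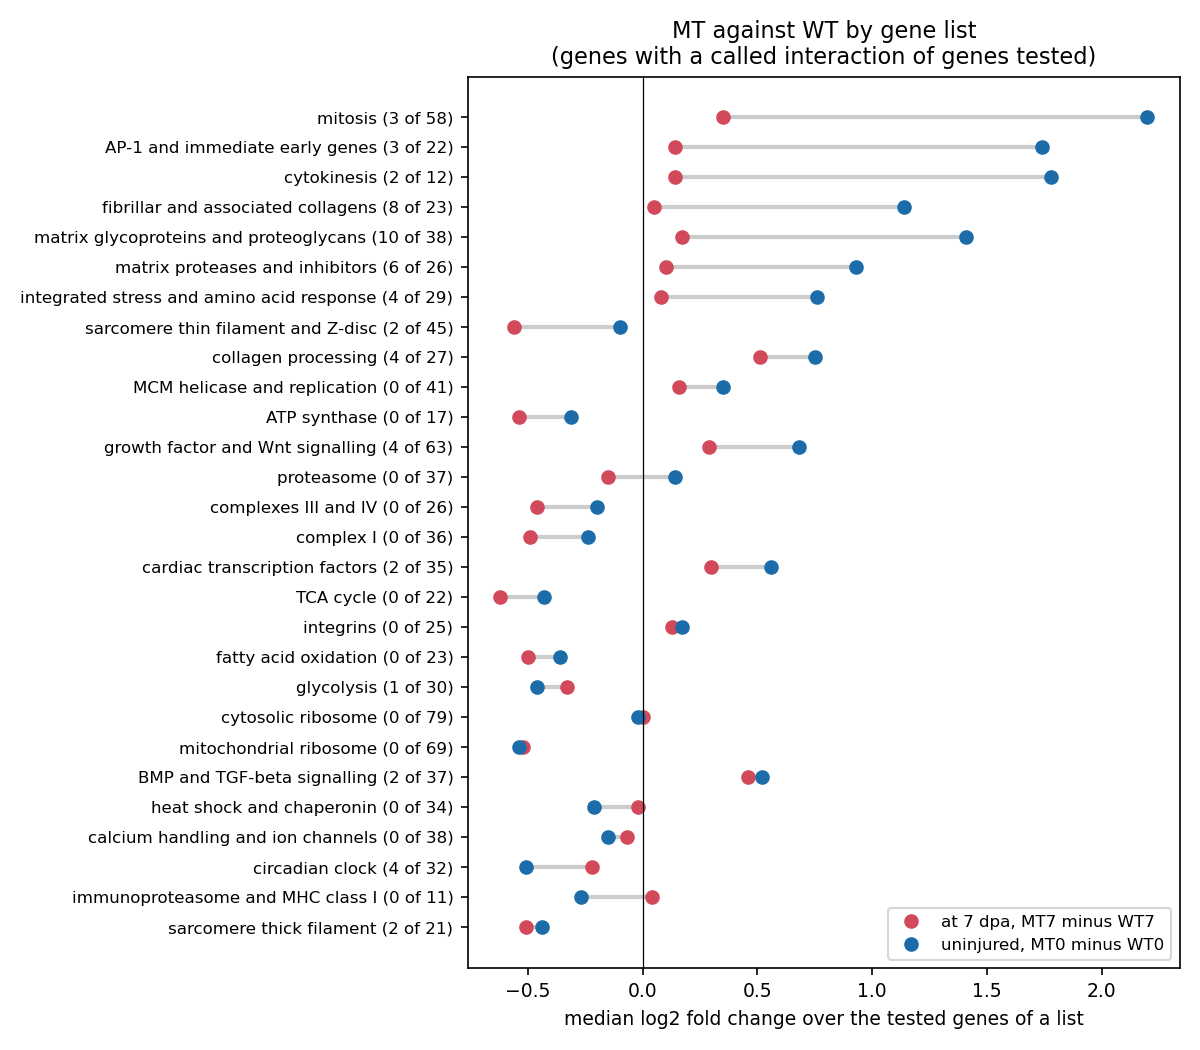
Median MT-WT log2 fold change (x axis) over the tested genes of each gene list (y axis, with genes that have a called response difference of genes tested), at 7 dpa (red) and uninjured (blue), ordered by the median response difference. Mitosis, AP-1, cytokinesis, collagen, matrix glycoprotein, and matrix protease lists lay far from 0 in uninjured apices and nearer 0 at 7 dpa. Mitosis had 2.2 uninjured and 0.35 at 7 dpa. Collagen processing had 0.75 uninjured and 0.51 at 7 dpa.

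Of the gene lists examined, the collagens had the highest share of called genes. Of 23 tested collagen genes, 8 had a lower response in MT and none a higher, against 1.51% of all genes. These were col1a1a, col1a1b, col1a2, col5a1, col5a2a, col6a3, col12a1a, and col16a1, which encode fibrillar collagens, the microfibrillar collagen VI, and fibril-associated collagens. All 8 were called in MT0 over WT0 and none in MT7 over WT7. Of all 23 collagen genes, 11 were higher in MT0 than in WT0 and 0 lower, against 13.6% and 11.6% of all genes. In MT7, 2 were higher than in WT7 and 1 lower, against 4.6% and 5.62%. The list median was 0.05 at 7 dpa, 1.14 in uninjured apices, and -1.09 for the response difference. Left-out libraries gave 5 (without WT7 replicate 2) to 12 (without MT0 replicate 1) calls in the list.

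col1a2, a chain of type I collagen, had 1271 and 1316 CPM in MT7 and 461.8 and 598.8 CPM in MT0, against 1236 and 1345 CPM in WT7 and 112.0 and 112.7 CPM in WT0. The MT7 and WT7 libraries overlapped, whereas both MT0 libraries were above both WT0 libraries. After amputation col1a2 therefore rose in both genotypes, by 1.29 (log2) in MT and 3.52 in WT. The response difference was -2.24 ± 0.20 (FDR 0.00212). col1a1b, another type I collagen chain, had 1448 and 1577 CPM in MT7 and 633.4 and 820.7 CPM in MT0, against 1404 and 1510 CPM in WT7 and 130.4 and 137.0 CPM in WT0. Its MT-WT difference was 0.05 at 7 dpa and 2.44 before (response difference -2.39 ± 0.21, FDR 0.00212). col5a1, which encodes a collagen that starts type I fibrils, had 441.4 and 497.0 CPM in MT7 and 246.1 and 329.3 CPM in MT0, against 507.5 and 545.3 CPM in WT7 and 59.3 and 66.1 CPM in WT0. Both MT7 libraries were slightly below both WT7 libraries, a difference of -0.17 that was not called, and both MT0 libraries exceeded both WT0 libraries (response difference -2.36 ± 0.23, FDR 0.0022). TG apices had 1355 and 1332 CPM in TG7 and 252.0 and 231.0 CPM in TG0 for col1a2, so that TG0 was above WT0 and below MT0. The calls of col1a2, col1a1b, and col5a1 held in all 8 fits with 1 library left out.

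Of 27 tested genes of collagen processing, 16 were higher in MT0 than in WT0 and 1 lower, against 13.6% and 11.6% of all genes. In MT7, 4 were higher than in WT7 and 0 lower, against 4.6% and 5.62%. A lower response in MT was called at 4 of the 27 genes, against 1.51% of all genes. These were plod2, pcolcea, loxl2a, and loxl2b, each with a starting level difference only. Left-out libraries gave 1 (without WT7 replicate 2) to 10 (without WT0 replicate 2) calls. plod2, a lysyl hydroxylase that prepares collagen for cross-linking, had 157.7 and 164.3 CPM in MT7 and 89.9 and 113.0 CPM in MT0, against 114.7 and 129.9 CPM in WT7 and 17.0 and 18.2 CPM in WT0. Its MT libraries were higher than the WT libraries before injury and remained so by a smaller, uncalled margin at 7 dpa (0.40). The response difference was -2.13 ± 0.19 (FDR 0.00212). loxl2b, a lysyl oxidase-like enzyme, had 116.8 and 139.3 CPM in MT7 and 40.3 and 73.8 CPM in MT0, against 152.0 and 183.4 CPM in WT7 and 14.9 and 12.6 CPM in WT0, a response difference of -2.44 ± 0.36 (FDR 0.0125). pcolcea, which enhances the trimming of procollagen, had a response difference of -1.45 ± 0.28 (FDR 0.0371) with a WT response of 2.19 and an MT response of 0.75. The plod2 call held in all 8 fits with 1 library left out. loxl2b lost its call without WT7 replicate 2 (highest FDR 0.0614), and pcolcea without WT0 replicate 1, MT0 replicate 2, WT7 replicate 1, WT7 replicate 2, MT7 replicate 1 or MT7 replicate 2 (highest FDR 0.153).

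**Figure D3:**
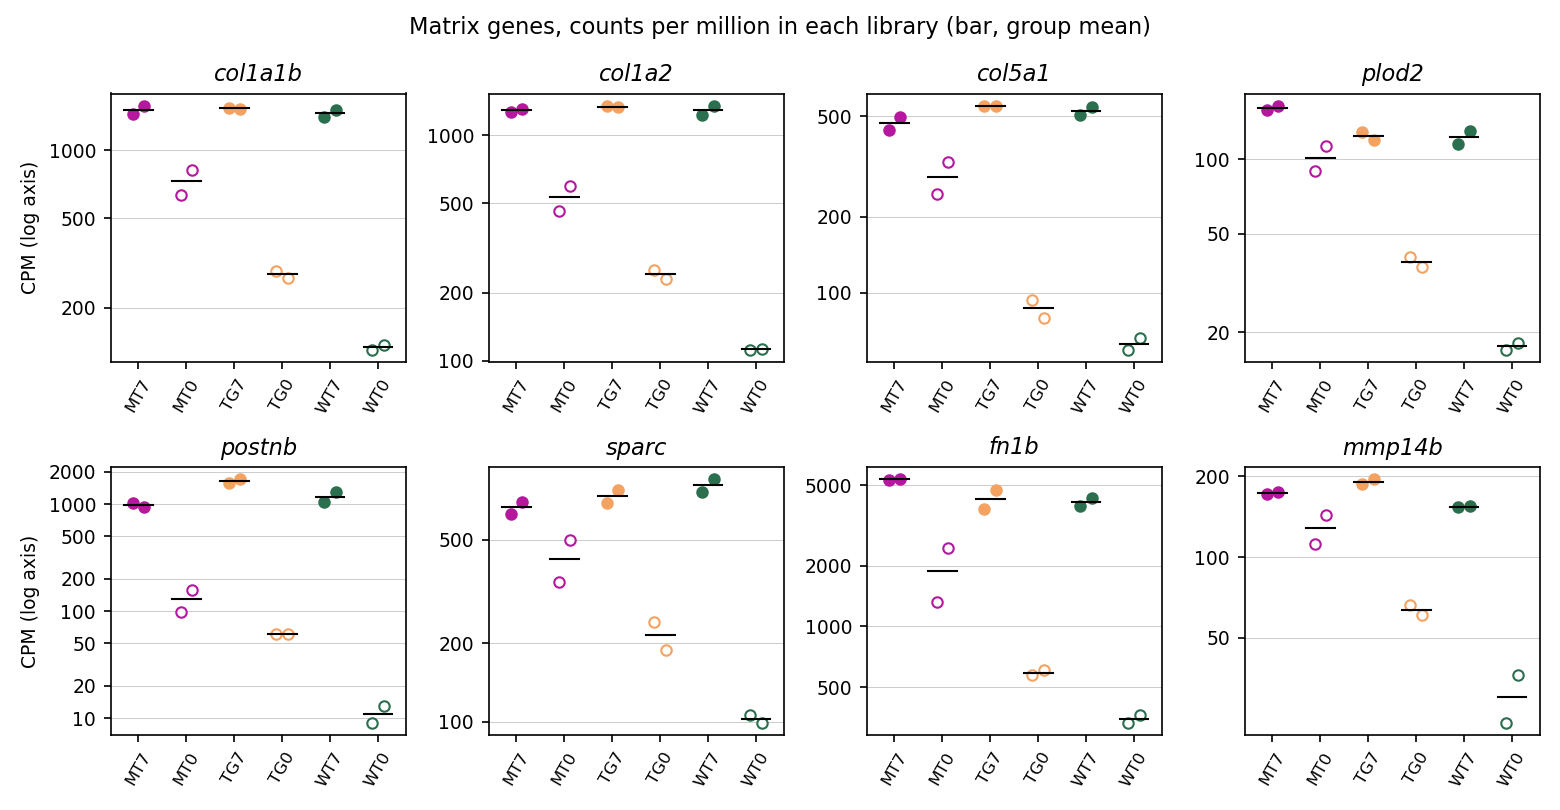
CPM (y axis, log scale) of 8 matrix genes in each library of MT7, MT0, TG7, TG0, WT7, and WT0 (x axis), with filled points for 7 dpa, open points for uninjured apices, and a bar at the group mean. WT0 lies lowest in all 8 genes, MT0 lies above it, and the 7 dpa groups lie close together for col1a2, with 1271 and 1316 CPM in MT7 and 1236 and 1345 CPM in WT7.

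Most called genes among the matrix glycoproteins and proteoglycans showed the same split, but the list as a whole was not level with WT at 7 dpa. Of its 38 genes, 24 were higher in MT0 than in WT0, against 13.6% of all genes. In MT7, 7 were higher than in WT7 and 1 lower, against 4.6% and 5.62%. Of the 38 genes, 10 had a lower response in MT, against 1.51% of all genes. Of the 10, 7 had a starting level difference only (fn1a, fn1b, postnb, sparc, mfap2, lamb1a, and nid1b). postna and lum were higher in MT at both times, by 1.53 and 0.94 (log2) at 7 dpa and by 4.23 and 2.97 before. DESeq2 called 18 genes of this list and limma-voom 5, against 1188 and 185 of all genes. With 1 library left out 2 (without WT7 replicate 2 or MT7 replicate 1) to 15 (without WT0 replicate 2) were called. emilin1a, which encodes an elastic fiber-associated glycoprotein, was the exception, with MT lower at 7 dpa (-0.89) and no difference before (0.01). postnb, a periostin of the wound matrix, had 1027 and 949.4 CPM in MT7 and 98.2 and 158.7 CPM in MT0, against 1039 and 1306 CPM in WT7 and 8.95 and 12.8 CPM in WT0. MT0 was about midway on the log scale between WT0 and the injured groups, and the MT7 libraries were below both WT7 libraries, an uncalled difference of -0.25. The response was 2.94 in MT and 6.75 in WT (response difference -3.81 ± 0.34, FDR 0.00212).

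sparc, which encodes osteonectin, a collagen-binding glycoprotein, had 630.0 and 698.9 CPM in MT7 and 342.5 and 500.4 CPM in MT0, against 763.4 and 853.2 CPM in WT7 and 106.0 and 98.8 CPM in WT0. Its response difference was -2.32 ± 0.27 (FDR 0.00595), and both MT7 libraries were lower than both WT7 libraries without a call (-0.28). fn1b, a fibronectin, had 5315 and 5349 CPM in MT7 and 1327 and 2434 CPM in MT0, against 3923 and 4339 CPM in WT7 and 332.3 and 365.2 CPM in WT0. All MT libraries exceeded the WT libraries of the same time, by 0.37 (uncalled) at 7 dpa and 2.43 before, with a response difference of -2.06 ± 0.35 (FDR 0.0211). nid1b, a basement membrane nidogen, had a response difference of -1.59 ± 0.24 (FDR 0.0133). In TG apices postnb had 1565 and 1712 CPM in TG7 and 61.0 and 61.5 CPM in TG0, fn1b 3815 and 4711 CPM in TG7 and 575.8 and 606.9 CPM in TG0, and sparc 688.4 and 776.6 CPM in TG7 and 241.0 and 188.5 CPM in TG0. The calls of postnb and sparc held in all 8 fits with 1 library left out. That of nid1b was lost without WT7 replicate 2 or MT7 replicate 1 (highest FDR 0.0697), and that of fn1b without WT0 replicate 1, WT7 replicate 1, WT7 replicate 2, MT7 replicate 1 or MT7 replicate 2 (highest FDR 0.102).

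Of 26 genes of matrix proteases and their inhibitors, 6 had a lower response in MT, against 1.51% of all genes. All 6 had a starting level difference only, among them mmp14a, mmp14b, mmp15a, timp2b, and adamts1. With 1 library left out, 1 (without WT7 replicate 2) to 11 (without WT0 replicate 2) genes of the list were called. mmp14b, a membrane-bound collagenase, had 171.2 and 174.4 CPM in MT7 and 112.3 and 144.0 CPM in MT0, against 154.1 and 154.5 CPM in WT7 and 24.0 and 36.2 CPM in WT0. Its levels at 7 dpa were 0.16 apart and its uninjured levels 2.09 (response difference -1.93 ± 0.26, FDR 0.00847). timp2b, a metalloprotease inhibitor, had 161.0 and 178.5 CPM in MT7 and 67.6 and 158.6 CPM in MT0, against 155.4 and 205.1 CPM in WT7 and 9.09 and 13.7 CPM in WT0. MT0 replicate 2 was within the 7 dpa range and MT0 replicate 1 below it, both above WT0 (response difference -3.40 ± 0.52, FDR 0.0148). The mmp14b call held in all 8 fits with 1 library left out, while timp2b lost its call without WT7 replicate 2 or MT7 replicate 1 (highest FDR 0.0697). None of 25 integrin genes was called, against 1.97% of all genes. At an unadjusted p-value below 0.05 there were 8, against 3677 of all 19014 genes. DESeq2 called 2 and limma-voom 0. itgb1b.2 had 1.45 and 1.09 CPM in MT7 and 2.71 and 2.65 CPM in MT0, against 1.7 and 1.55 CPM in WT7 and 1.08 and 0.671 CPM in WT0, and itgb5 had 18.2 and 19.3 CPM in MT7 and 16.7 and 17.5 CPM in MT0, against 22.9 and 22.2 CPM in WT7 and 8.27 and 13.1 CPM in WT0.

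Markers of epicardium and fibroblasts moved with the matrix genes. They summed to 13390 and 12650 CPM in MT7 and 6579 and 10120 CPM in MT0, against 11440 and 12150 CPM in WT7 and 4058 and 3553 CPM in WT0. Of 23 tested markers, 6 had a lower response in MT (wt1b, col1a2, postnb, lum, twist1b, and anxa2a), against 1.51% of all genes. Of these 6, col1a2, postnb, and lum are matrix genes as well. Of the 23 markers, 18 were higher in MT0 than in WT0, against 13.6% of all genes. In MT7, 7 were higher than in WT7 and 0 lower, against 4.6% and 5.62%. Left-out libraries gave 2 (without MT0 replicate 2, WT7 replicate 1, WT7 replicate 2, or MT7 replicate 1) to 9 (without WT0 replicate 2) calls among these markers. In these bulk libraries, fewer cells of a type and less RNA per cell cannot be told apart. The part of cell composition in the matrix results, and in the sarcomere, calcium handling, and mitochondrial results below, was not tested. twist1b, a mesenchymal transcription factor, had 32.3 and 35.2 CPM in MT7 and 30.6 and 40.4 CPM in MT0, against 11.2 and 13.2 CPM in WT7 and 1.08 and 2.91 CPM in WT0. The MT libraries were above the WT libraries at both times, and MT hardly moved after amputation (-0.08) whereas WT rose by 2.62 (response difference -2.70 ± 0.44, FDR 0.0198). The twist1b call was lost without MT0 replicate 2, WT7 replicate 1, WT7 replicate 2 or MT7 replicate 1 (highest FDR 0.093).

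Most other cell type markers gave few calls. Of 11 cardiomyocyte markers, vmhc and myh6 were called, in opposite directions (18.2%, against 1.97% of all genes). In MT7, 6 of the 11 were lower than in WT7 and 1 higher, against 5.62% and 4.6% of all genes. fn1b, described above, was the only called gene of 6 tested thrombocyte markers, against 1.97% of all genes. By edgeR, none of 31 macrophage and pan-leukocyte, 10 neutrophil, 12 lymphocyte, 16 smooth muscle, 11 red blood cell, 21 skeletal muscle, 17 liver and pancreas, and 14 neural markers was called. Over all genes, 1.97% were called, and 3677 of 19014 had an unadjusted p-value below 0.05. At an unadjusted p-value below 0.05 there were 5 macrophage, 1 neutrophil, 3 lymphocyte, 6 smooth muscle, 3 red blood cell, 4 skeletal muscle, 8 liver and pancreas, and 2 neural markers. DESeq2 called 3 smooth muscle, 5 liver and pancreas, and 1 each of lymphocyte, red blood cell, skeletal muscle, and neural markers, and limma-voom called none of these. The smooth muscle gene tagln had 423.8 and 553.1 CPM in MT7 and 134.4 and 722.0 CPM in MT0, against 379.0 and 532.0 CPM in WT7 and 35.4 and 46.0 CPM in WT0 (FDR 0.0832), with the MT0 libraries far apart. The elastic fiber gene fbln5 had 24.3 and 20.1 CPM in MT7 and 12.5 and 23.4 CPM in MT0, against 14.9 and 20.9 CPM in WT7 and 3.59 and 4.47 CPM in WT0 (FDR 0.0763). tfr1a, the transferrin receptor of red cell precursors, stood out in WT0 replicate 1 with 259 CPM, against 11.6 CPM in WT0 replicate 2 and 3.34 to 6.12 CPM in the MT7, MT0, and WT7 libraries.

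Among the leukocyte and other markers without a call, marco had 152.8 and 129.6 CPM in MT7 and 41.0 and 46.2 CPM in MT0, against 77.6 and 127.3 CPM in WT7 and 52.8 and 156.3 CPM in WT0, and lgals3bpb had 137.5 and 96.2 CPM in MT7 and 24.0 and 51.1 CPM in MT0, against 86.5 and 264.2 CPM in WT7 and 10.6 and 20.1 CPM in WT0. Of the neutrophil genes, mmp9 had 6.5 and 18.1 CPM in MT7 and 3.28 and 3.63 CPM in MT0, against 12.1 and 9.59 CPM in WT7 and 0.881 and 0.373 CPM in WT0, and ncf1, a subunit of the phagocyte oxidase, had 19.3 and 30.2 CPM in MT7 and 7.63 and 23.9 CPM in MT0, against 12.9 and 19.1 CPM in WT7 and 4.2 and 4.4 CPM in WT0. The MT7 and WT7 libraries overlapped for mmp9, while both MT7 libraries lay above both WT7 libraries for ncf1. Of the 10 neutrophil markers, 4 were higher in MT0 than in WT0 and 0 lower, against 13.6% and 11.6% of all genes. In MT7, 1 was higher than in WT7 and 0 lower, against 4.6% and 5.62%. il2rb had 2.03 and 0.764 CPM in MT7 and 0.396 and 1.03 CPM in MT0, against 0.825 and 1.24 CPM in WT7 and 4.95 and 2.83 CPM in WT0 and cd8a 1.41 and 1.17 CPM in MT7 and 0.226 and 0.763 CPM in MT0, against 0.243 and 0.177 CPM in WT7 and 0.475 and 0.969 CPM in WT0. The erythroid factor klf1 had 28.6 and 17.6 CPM in MT7 and 9.84 and 7.67 CPM in MT0, against 14.7 and 15.6 CPM in WT7 and 11.7 and 11.9 CPM in WT0. These markers had response differences from -2.25 ± 0.73 for mmp9 to 3.09 ± 1.04 for cd8a with FDRs between 0.126 for il2rb and 0.32 for ncf1. apoa2 had 1.08 and 39.0 CPM in MT7 and 0.0565 and 0.0898 CPM in MT0, against 0 and 0.0884 CPM in WT7 and 0.271 and 0.746 CPM in WT0, fgb 0.58 and 11.8 CPM in MT7 and 0 and 0.0898 CPM in MT0, against 0.0485 and 0.0884 CPM in WT7 and 0.203 and 0.149 CPM in WT0, tnnt3b 1.28 and 31.3 CPM in MT7 and 0.113 and 0.135 CPM in MT0, against 0.437 and 0.574 CPM in WT7 and 0.542 and 0.447 CPM in WT0, and ckmb 1.99 and 31.2 CPM in MT7 and 1.07 and 0.718 CPM in MT0, against 176.2 and 68.7 CPM in WT7 and 155.1 and 84.3 CPM in WT0. Among the MT and WT libraries, the liver and fast muscle transcripts apoa2, fgb, and tnnt3b thus lay mainly in MT7 replicate 2, while ckmb was lowest in MT0. The neural genes snap25b and plp1b had 0.538 and 0.643 CPM in MT7 and 0 and 0.0898 CPM in MT0, against 0.0485 and 0.0884 CPM in WT7 and 0.203 and 0.298 CPM in WT0 and 1.08 and 3.78 CPM in MT7 and 3.9 and 7.27 CPM in MT0, against 8.25 and 4.55 CPM in WT7 and 1.97 and 2.91 CPM in WT0.

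Genes of cell division were already raised in uninjured MT apices. Of 58 mitosis genes, 47 were higher in MT0 than in WT0, against 13.6% of all genes. In MT7, 1 was higher than in WT7, against 4.6%. The median response of the list was 0.83 in MT and 2.83 in WT, and the median response difference was -1.90, with 54 of 58 genes negative and 40 at an unadjusted p-value below 0.05. The call itself was made for 3 genes by edgeR, top2a, kif20a, and prc1b, against 1.97% of all genes. It was made for 19 by DESeq2, against 1188 of all genes, and for 0 by limma-voom or with a replicate block. The list median of log2 CPM was 3.38 and 2.53 in MT7 and 1.96 and 2.14 in MT0, against 2.26 and 2.74 in WT7 and -0.31 and 0.04 in WT0. The transgenic libraries had 2.98 and 2.81 in TG7 and 1.63 and 0.66 in TG0. WT0 therefore held the lowest levels of mitosis transcripts, while the MT7 and WT7 libraries overlapped.

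top2a, the topoisomerase that untangles chromosomes, had 39.1 and 29.6 CPM in MT7 and 20.2 and 25.1 CPM in MT0, against 27.5 and 43.8 CPM in WT7 and 2.71 and 4.4 CPM in WT0 (response difference -2.73 ± 0.55, FDR 0.0398). kif20a, a kinesin of the late spindle, had 15.4 and 10.9 CPM in MT7 and 6.28 and 8.35 CPM in MT0, against 8.3 and 14.1 CPM in WT7 and 0.814 and 0.671 CPM in WT0, and prc1b, which bundles spindle microtubules, had 10.3 and 8.4 CPM in MT7 and 7.75 and 8.57 CPM in MT0, against 10 and 16.4 CPM in WT7 and 0.542 and 1.27 CPM in WT0. kif20a and prc1b also belong to the 12 cytokinesis genes, of which 2 were called, against 1.97% of all genes. Their response differences were -3.06 ± 0.63 (FDR 0.0429) and -3.68 ± 0.76 (FDR 0.0432). ect2, the activator of RhoA at the division furrow, had 9.94 and 3.94 CPM in MT7 and 2.77 and 3.73 CPM in MT0, against 5.44 and 5.83 CPM in WT7 and 0.542 and 1.19 CPM in WT0. Its response was 1.09 in MT and 2.7 in WT, and the response difference of -1.61 ± 0.69 was not called (FDR 0.238). TG apices had 6.15 and 4.99 CPM of ect2 in TG7 and 2.87 and 1.71 CPM in TG0, a response of 1.29. For ect2, (MT7-MT0)-(TG7-TG0) was -0.20 ± 0.65 (FDR 0.931) and (TG7-TG0)-(WT7-WT0) was -1.42 ± 0.70 (FDR 0.261). All 3 called mitosis genes were called in 1 of the 8 fits with 1 library left out, the fit without WT0 replicate 2. That fit called 10 genes of the mitosis list, and the other 7 fits 0 or 1.

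None of 41 DNA replication genes was called by edgeR, against 1.97% of all genes (3 at an unadjusted p-value below 0.05, 1 by DESeq2, 0 by limma-voom), with a median response difference of -0.33. In MT0, 8 of the 41 were higher than in WT0, against 13.6% of all genes. tk1, thymidine kinase, had 12.3 and 9.97 CPM in MT7 and 7.18 and 8.8 CPM in MT0, against 8.98 and 13.96 CPM in WT7 and 2.1 and 1.12 CPM in WT0 with an FDR of 0.0708. pole2, a subunit of the replicative polymerase epsilon, had 3.31 and 2.05 CPM in MT7 and 3.11 and 2.15 CPM in MT0, against 2.96 and 3.93 CPM in WT7 and 0.678 and 0.895 CPM in WT0 and an FDR of 0.154. In both, WT0 was lowest.

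Of 22 AP-1 and immediate early genes, 3 had a lower response in MT, against 1.51% of all genes. Without WT0 replicate 2 there were 6 calls. There was none when any 1 of the WT7 or MT7 libraries was left out. In MT0, 14 were higher than in WT0, against 13.6% of all genes, and in MT7 none was higher than in WT7, against 4.6%. atf3, a stress-induced repressor, had 14.8 and 11.6 CPM in MT7 and 50.2 and 98.3 CPM in MT0, against 11.6 and 13.1 CPM in WT7 and 13.3 and 7.98 CPM in WT0. MT0 was apart from all other groups, and MT7 overlapped WT7. atf3 fell by 2.5 on the log2 scale in MT, against a WT change of 0.21 (response difference -2.70 ± 0.45, FDR 0.021). junba and fosl2, both AP-1 subunits, differed in pattern from atf3. junba had 60.2 and 40.6 CPM in MT7 and 43.1 and 63.0 CPM in MT0, against 29.1 and 52.2 CPM in WT7 and 8.47 and 4.92 CPM in WT0, and fosl2 had 51.0 and 53.4 CPM in MT7 and 39.5 and 64.0 CPM in MT0, against 40.0 and 47.4 CPM in WT7 and 10.1 and 6.41 CPM in WT0. For both, MT0 lay at the 7 dpa level and WT0 was low, with response differences of -2.67 ± 0.53 (FDR 0.0385) and -2.39 ± 0.40 (FDR 0.0205). atf3 and fosl2 lost their calls without WT7 replicate 1, WT7 replicate 2, MT7 replicate 1 or MT7 replicate 2 (highest FDR 0.0968), and junba without WT0 replicate 1, MT0 replicate 2, WT7 replicate 1, WT7 replicate 2, MT7 replicate 1 or MT7 replicate 2 (highest FDR 0.152).

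Of 29 genes of the integrated stress and amino acid response, 4 had a lower response in MT, against 1.51% of all genes. Each had a starting level difference only. Left-out libraries gave 1 (without WT7 replicate 2) to 8 (without WT0 replicate 2) calls. slc3a2b, the heavy chain of amino acid exchangers, had 47.0 and 53.3 CPM in MT7 and 177.2 and 192.2 CPM in MT0, against 63.3 and 67.2 CPM in WT7 and 47.5 and 62.3 CPM in WT0. ddit3, a transcription factor of the unfolded protein response, had 74.0 and 79.2 CPM in MT7 and 134.3 and 123.9 CPM in MT0, against 77.2 and 81.2 CPM in WT7 and 56.9 and 49.4 CPM in WT0. ppp1r15a, which directs the dephosphorylation of eIF2alpha, had 46.2 and 44.1 CPM in MT7 and 78.0 and 85.5 CPM in MT0, against 30.2 and 36.6 CPM in WT7 and 20.8 and 19.7 CPM in WT0. In all 3 genes both MT0 libraries exceeded every other library of MT and WT, and the MT level fell after amputation, by 1.88 on the log2 scale for slc3a2b. Their response differences were -2.13 ± 0.26 (FDR 0.0062), -1.33 ± 0.21 (FDR 0.0181), and -1.58 ± 0.26 (FDR 0.0199). slc7a3a, a cationic amino acid transporter, was the fourth, at -1.71. The slc3a2b call held in all 8 fits with 1 library left out, while ddit3 lost it without WT7 replicate 1, WT7 replicate 2 or MT7 replicate 1 (highest FDR 0.0901) and ppp1r15a without MT0 replicate 2, WT7 replicate 2, MT7 replicate 1 or MT7 replicate 2 (highest FDR 0.0968).

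None of 34 heat shock and chaperonin genes was called, against 1.97% of all genes. At an unadjusted p-value below 0.05 there were 7, against 3677 of all 19014 genes. DESeq2 called 2 and limma-voom 0. hspd1, a mitochondrial chaperonin, had 91.6 and 86.5 CPM in MT7 and 216.9 and 182.6 CPM in MT0, against 134.3 and 119.5 CPM in WT7 and 507.3 and 462.7 CPM in WT0. stip1, a co-chaperone of Hsp90, had 109.0 and 114.3 CPM in MT7 and 173.6 and 158.5 CPM in MT0, against 113.9 and 115.4 CPM in WT7 and 250.4 and 250.0 CPM in WT0. WT0 was highest in both, and their response differences of 0.77 ± 0.17 (FDR 0.0586) and 0.55 ± 0.14 (FDR 0.0802) fell short of the call.

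Of the gene lists, the clock genes held the most members with a higher response in MT. Of 32 tested, 4 had a higher response (against 0.463% of all genes) and none a lower, per1b, nr1d2b, nfil3-6, and bhlhe40, all with a starting level difference only. DESeq2 called 9 clock genes and limma-voom 2, against 1188 and 185 of all genes. With 1 library left out 1 (without either WT7 library) to 17 (without WT0 replicate 2) were called. nr1d2b, a Rev-erb repressor, had 80.5 and 87.5 CPM in MT7 and 18.4 and 18.1 CPM in MT0, against 112.6 and 113.8 CPM in WT7 and 170.0 and 93.6 CPM in WT0. Both MT0 libraries were far below the rest of MT and WT, and WT showed no called change (response difference 2.42 ± 0.31, FDR 0.00738). bhlhe40, a repressor of clock activators, had 203.2 and 261.7 CPM in MT7 and 69.2 and 43.6 CPM in MT0, against 204.5 and 221.9 CPM in WT7 and 227.1 and 185.2 CPM in WT0, and nfil3-6, related to the repressor Nfil3, had 86.7 and 95.5 CPM in MT7 and 25.5 and 36.8 CPM in MT0, against 95.04 and 110.4 CPM in WT7 and 132.6 and 91.5 CPM in WT0. Their response differences were 2.0 ± 0.30 (FDR 0.0143) and 1.67 ± 0.33 (FDR 0.0375).

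TG0 was like MT0 for these genes. nr1d2b had 101.9 and 105.6 CPM in TG7 and 22.8 and 21.02 CPM in TG0, bhlhe40 had 242.3 and 233.0 CPM in TG7 and 50.9 and 58.3 CPM in TG0, and nfil3-6 had 95.1 and 135.8 CPM in TG7 and 40.4 and 36.4 CPM in TG0, and (TG7-TG0)-(WT7-WT0) was called for each of the 3 (3.64% of all genes, 1.64% higher and 2.01% lower). The hour of tissue collection is not given in the sources used here, and its part in the clock results was not tested. The nr1d2b call held in all 8 fits with 1 library left out, bhlhe40 lost it without WT7 replicate 1 or WT7 replicate 2 (highest FDR 0.0697), and nfil3-6 without WT0 replicate 1, MT0 replicate 1, WT7 replicate 1, WT7 replicate 2, MT7 replicate 1 or MT7 replicate 2 (highest FDR 0.127).

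**Figure D4:**
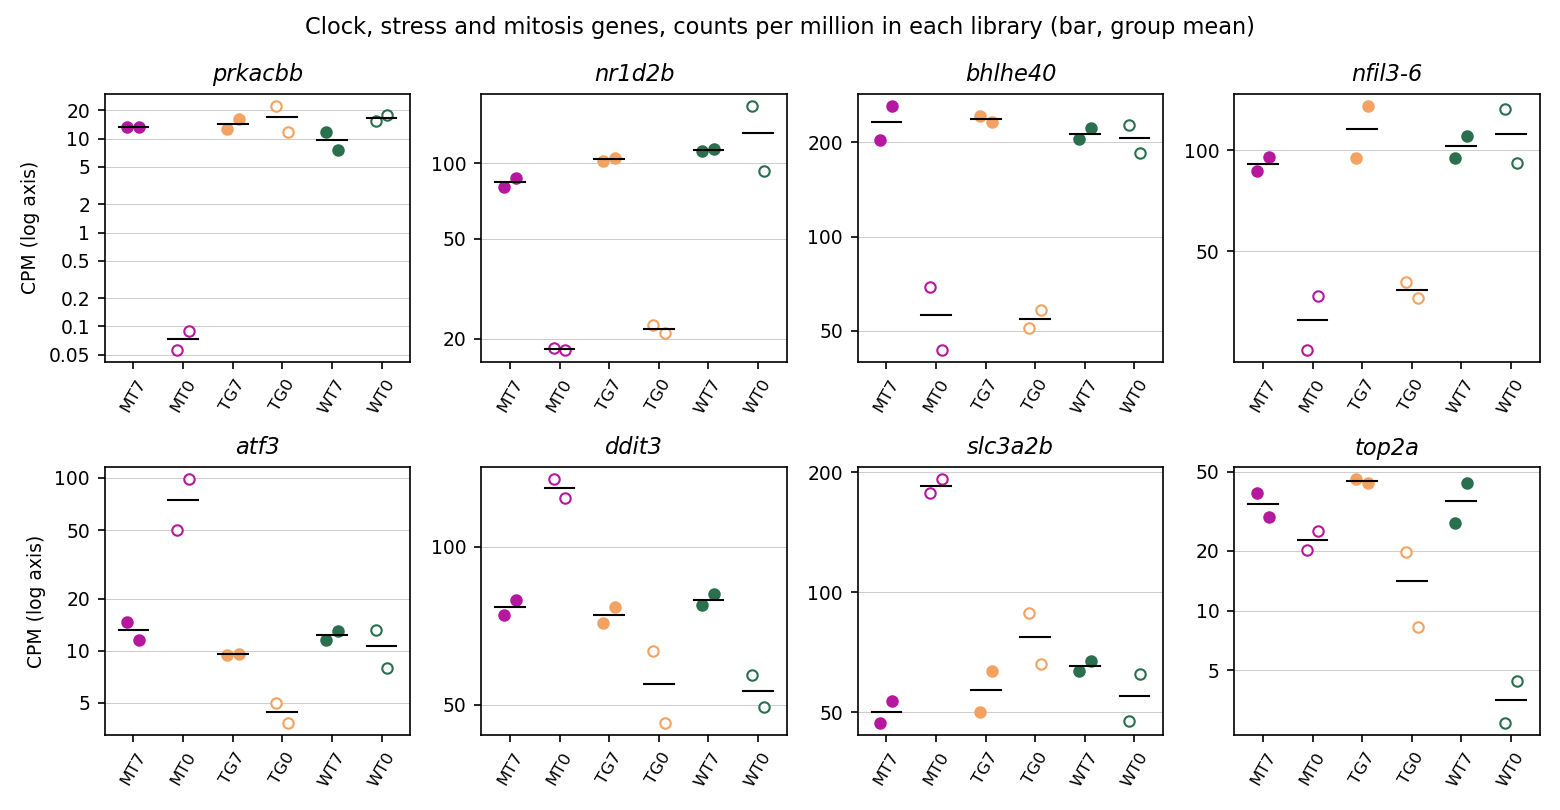
CPM (y axis, log scale) of prkacbb, 3 clock genes, 3 stress genes, and top2a in each library of the 6 groups (x axis), with filled points for 7 dpa, open points for uninjured apices, and a bar at the group mean. MT0 alone is low for prkacbb (0.0565 and 0.0898 CPM) and alone high for atf3 (50.2 and 98.3 CPM), whereas MT0 and TG0 are both low for the clock genes.

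prkacbb, a catalytic subunit of protein kinase A, had the smallest p-value of the higher responses and was nearly absent from MT0 alone. It had 13.3 and 13.4 CPM in MT7 and 0.0565 and 0.0898 CPM in MT0, against 11.8 and 7.6 CPM in WT7 and 15.6 and 17.9 CPM in WT0, and 12.8 and 16.2 CPM in TG7 and 22.4 and 11.8 CPM in TG0. The MT0 libraries held 3 counts together, against 655 counts in MT7 and 470 in WT0, a ratio of MT7 over MT0 of 178 (exact 95% interval for counting error 60.6 to 865). The response difference had an FDR of 0.00135 and was called in all 8 fits with 1 library left out. MT7 and WT7 levels did not differ by the call (0.46). smpdl3b, a phosphodiesterase, had 1.57 and 1.77 CPM in MT7 and 0.509 and 0.314 CPM in MT0, against 1.99 and 1.94 CPM in WT7 and 5.22 and 5.52 CPM in WT0 (response difference 3.47 ± 0.50, FDR 0.0122), with a call that was lost without WT7 replicate 1 or WT7 replicate 2 (highest FDR 0.0697). MT0 was lowest and WT0 highest for smpdl3b.

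Among 35 cardiac transcription factors, tbx1 had a lower response in MT, against 1.51% of all genes. tbx1, a factor of the outflow tract, had 14.9 and 16.9 CPM in MT7 and 5.77 and 9.11 CPM in MT0, against 9.17 and 10.8 CPM in WT7 and 0.203 and 0.298 CPM in WT0. It was almost absent from WT0, and the response was 1.09 in MT and 5.29 in WT (response difference -4.20 ± 0.47, FDR 0.00505), with 19.7 and 18.2 CPM in TG7 and 0.427 and 0.754 CPM in TG0. The tbx1 call held in all 8 fits with 1 library left out.

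Of 63 growth factor, Wnt, and Notch genes, igf2b, dkk1b, notum1b, and axin2 had a lower response in MT (6.35%, against 1.51% of all genes). With 1 library left out, 1 (without WT0 replicate 1, WT7 replicate 2, or MT7 replicate 1) to 7 (without WT0 replicate 2) genes of the list were called. igf2b, an insulin-like growth factor, had 170.0 and 159.2 CPM in MT7 and 278.8 and 285.4 CPM in MT0, against 101.1 and 103.7 CPM in WT7 and 34.4 and 55.0 CPM in WT0. It was higher in MT at both times, while it fell by 0.78 on the log2 scale in MT and rose by 1.2 in WT (response difference -1.97 ± 0.26, FDR 0.00793). dkk1b, a secreted Wnt inhibitor, had 4.89 and 7.76 CPM in MT7 and 4.64 and 9.2 CPM in MT0, against 1.84 and 3.58 CPM in WT7 and 0.0678 and 0.149 CPM in WT0. The WT0 libraries held 3 counts together, against 287 in MT0, a ratio of 67.4 (exact 95% interval for counting error 22.8 to 329), and the FDR of the response difference was 0.0388. axin2, a Wnt target and feedback inhibitor, had 13.3 and 13.1 CPM in MT7 and 18.8 and 16.9 CPM in MT0, against 13.1 and 16.2 CPM in WT7 and 9.22 and 9.84 CPM in WT0 (response difference -1.05 ± 0.20, FDR 0.0358). notum1b, related to a Wnt deacylase, had a response difference of -3.02. The igf2b call held in all 8 fits with 1 library left out, dkk1b lost it without WT0 replicate 1, MT0 replicate 2, WT7 replicate 1, WT7 replicate 2, MT7 replicate 1 or MT7 replicate 2 (highest FDR 0.146), and axin2 kept it only without WT0 replicate 2.

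Of 37 BMP and TGF-beta genes, bmp4 and chrdl2 were called (5.41%, against 1.97% of all genes). Without WT0 replicate 2, 8 genes of the list were called, and none when MT0 replicate 2 or any 1 of the WT7 and MT7 libraries was left out. bmp4, a BMP ligand, had 13.2 and 13.6 CPM in MT7 and 15.2 and 18.7 CPM in MT0, against 2.38 and 2.96 CPM in WT7 and 1.08 and 0.746 CPM in WT0, so that both MT groups were above both WT groups. It was called higher in MT at both times, by 2.33 at 7 dpa and 4.19 before (response difference -1.86 ± 0.40, FDR 0.049). chrdl2, related to the BMP antagonist chordin, had 1.12 and 0.523 CPM in MT7 and 0.622 and 2.24 CPM in MT0, against 2.86 and 4.02 CPM in WT7 and 0.203 and 0.298 CPM in WT0, higher in MT0 than in WT0 and lower in MT7 than in WT7 (response difference -4.57 ± 0.91, FDR 0.0385). bmp4 kept its call only without WT0 replicate 2, and chrdl2 lost it without WT0 replicate 1, MT0 replicate 2, WT7 replicate 1, WT7 replicate 2, MT7 replicate 1 or MT7 replicate 2 (highest FDR 0.15).

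Sarcomere genes were not uniform. Of 21 thick filament genes, vmhc had a lower and myh6 a higher response in MT, against 1.51% and 0.463% of all genes. vmhc, the ventricular myosin heavy chain, had 796.4 and 555.8 CPM in MT7 and 734.3 and 544.2 CPM in MT0, against 1228 and 1428 CPM in WT7 and 278.9 and 396.9 CPM in WT0. It rose by 1.97 in WT, against an uncalled change of 0.08 in MT, and MT was higher before and lower after injury (response difference -1.89 ± 0.35, FDR 0.0287). myh6, the atrial myosin heavy chain, had 2595 and 1133 CPM in MT7 and 631.7 and 1123 CPM in MT0, against 2.72 and 14.1 CPM in WT7 and 85.6 and 348.2 CPM in WT0, and 1045 and 998.4 CPM in TG7 and 438.0 and 863.7 CPM in TG0. It was lowest in WT7, and the MT-WT difference was 7.79 at 7 dpa, and 2.02 without a call before injury (response difference 5.77 ± 1.14, FDR 0.0375). Both WT groups varied several-fold between their libraries. The share of atrial tissue in each pool is not known, and its part was not tested. vmhc lost its call without WT0 replicate 1, MT0 replicate 1, WT7 replicate 1, WT7 replicate 2 or MT7 replicate 2 (highest FDR 0.132), and myh6 without MT0 replicate 1, MT0 replicate 2, WT7 replicate 1, WT7 replicate 2 or MT7 replicate 1 (highest FDR 0.104).

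Of 45 thin filament and Z-disc genes, tpm2 and ankrd1a had a lower response in MT, against 1.51% of all genes. The response difference was negative in 37 of the 45 (median -0.47), against 9975 of all 19014 genes. An unadjusted p-value below 0.05 was found for 19, against 3677 of all genes. After amputation 23 fell and 3 rose in MT, against 6.48% and 5.56% of all genes. In WT, 11 fell and 4 rose, against 11% and 13.2% of all genes. DESeq2 called 7 genes of this list and limma-voom 1. tpm2, a tropomyosin, had 327.0 and 402.2 CPM in MT7 and 706.8 and 655.1 CPM in MT0, against 70.0 and 80.0 CPM in WT7 and 51.5 and 58.1 CPM in WT0. Every MT library was above every WT library, by 2.28 at 7 dpa and 3.64 before, and TG apices (81.7 and 78.0 CPM in TG7 and 50.8 and 60.3 CPM in TG0) were at the WT level. It fell by 0.90 on the log2 scale in MT and changed by 0.45 in WT (response difference -1.35 ± 0.21, FDR 0.0148). ankrd1a, a stretch-responsive ankyrin repeat protein, had 25.6 and 20.03 CPM in MT7 and 21.9 and 53.5 CPM in MT0, against 22.1 and 25.1 CPM in WT7 and 1.08 and 1.57 CPM in WT0. It was at the injured level in MT0 already, and WT rose by 4.16 (response difference -4.88 ± 0.55, FDR 0.00557). The ankrd1a call held in all 8 fits with 1 library left out, and tpm2 lost it without WT7 replicate 2 (highest FDR 0.0867). Of 38 genes of calcium handling and ion channels, none was called, against 1.97% of all genes. At an unadjusted p-value below 0.05 there were 8, against 3677 of all 19014 genes. DESeq2 called 2 and limma-voom 0. scn4ab had 16.8 and 17.6 CPM in MT7 and 7.29 and 14.5 CPM in MT0, against 3.88 and 4.86 CPM in WT7 and 9.63 and 10.7 CPM in WT0, and kcnh6a had 231.9 and 256.6 CPM in MT7 and 651.1 and 650.4 CPM in MT0, against 330.8 and 307.8 CPM in WT7 and 416.3 and 510.1 CPM in WT0.

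**Figure D5:**
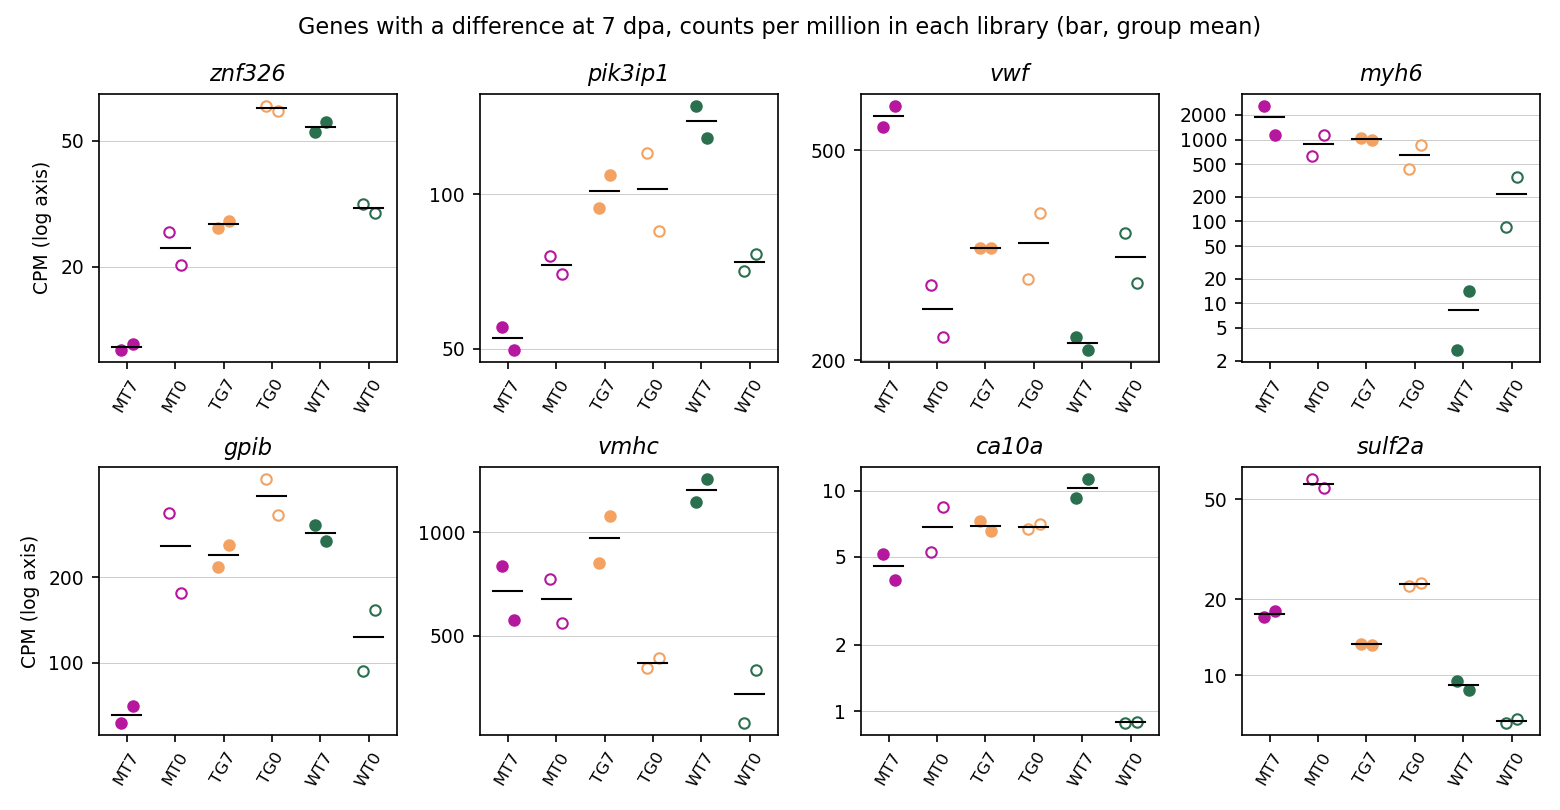
CPM (y axis, log scale) of 8 genes with an MT-WT difference at 7 dpa in each library of the 6 groups (x axis), with filled points for 7 dpa, open points for uninjured apices, and a bar at the group mean. MT7 is lowest for znf326 (10.9 and 11.4 CPM) and gpib (61.2 and 70.09 CPM), and WT7 is lowest for myh6 (2.72 and 14.1 CPM).

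Among genes called at 7 dpa and not before injury, znf326, a zinc finger protein linked to splicing, had the smallest p-value, with 10.9 and 11.4 CPM in MT7 and 25.7 and 20.2 CPM in MT0, against 53.2 and 57.5 CPM in WT7 and 31.5 and 29.6 CPM in WT0. MT7 was lowest and WT7 highest, as znf326 fell by 1.03 on the log2 scale in MT and rose by 0.86 in WT (response difference -1.89 ± 0.18, FDR 0.0022). pik3ip1, an inhibitor of phosphatidylinositol 3-kinase, had 55.2 and 49.8 CPM in MT7 and 75.9 and 70.06 CPM in MT0, against 148.9 and 128.8 CPM in WT7 and 70.9 and 76.4 CPM in WT0. It was at like levels in MT0 and WT0 (-0.01), below them in MT7, and above them in WT7 (response difference -1.39 ± 0.24, FDR 0.0218). dpp6b, related to a potassium channel subunit, had 7.95 and 4.18 CPM in MT7 and 26.97 and 34.6 CPM in MT0, against 19.03 and 24.6 CPM in WT7 and 17.8 and 20.9 CPM in WT0, and ehbp1l1b, related to a protein of endosomal transport, had 18.5 and 21.2 CPM in MT7 and 40.8 and 37.2 CPM in MT0, against 29.1 and 31.2 CPM in WT7 and 29.4 and 31.5 CPM in WT0. Both were lowest in MT7 and had no called change in WT, with response differences of -2.52 ± 0.43 (FDR 0.022) and -0.96 ± 0.17 (FDR 0.024). The znf326 call held in all 8 fits with 1 library left out. pik3ip1 lost its call without WT0 replicate 1, WT7 replicate 1, WT7 replicate 2, MT7 replicate 1 or MT7 replicate 2 (highest FDR 0.0828), dpp6b without WT0 replicate 1, MT0 replicate 2, WT7 replicate 1 or WT7 replicate 2 (highest FDR 0.107), and ehbp1l1b without WT0 replicate 1, WT7 replicate 1, WT7 replicate 2 or MT7 replicate 1 (highest FDR 0.125).

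vwf, which encodes von Willebrand factor of endothelium, had 553.3 and 606.7 CPM in MT7 and 277.9 and 221.2 CPM in MT0, against 221.6 and 209.3 CPM in WT7 and 348.3 and 279.4 CPM in WT0. Both MT7 libraries exceeded all others, and vwf rose by 1.22 in MT and fell by 0.54 on the log2 scale in WT (response difference 1.76 ± 0.25, FDR 0.0102). It is 1 of 2 endothelial and endocardial markers, of 25 tested, with a higher response in MT, against 0.463% of all genes. The other, stab1, a scavenger receptor, had 34.9 and 32.6 CPM in MT7 and 24.9 and 24.0 CPM in MT0, against 28.7 and 30.7 CPM in WT7 and 52.9 and 45.5 CPM in WT0 and differed before injury only, with a response difference of 1.19 ± 0.17 (FDR 0.0125). cyp2n13, a cytochrome P450, had 7.45 and 7.48 CPM in MT7 and 1.24 and 1.44 CPM in MT0, against 2.57 and 1.68 CPM in WT7 and 2.64 and 1.64 CPM in WT0, and 8.6 and 7.97 CPM in TG7 and 0.671 and 0.704 CPM in TG0, so that both transgene-carrying lines were high at 7 dpa. dock11, an activator of Cdc42, had 17.8 and 18.3 CPM in MT7 and 6.5 and 8.57 CPM in MT0, against 10.9 and 11.7 CPM in WT7 and 9.63 and 10.96 CPM in WT0, highest in MT7. Their response differences were 2.49 ± 0.44 (FDR 0.0239) and 1.12 ± 0.24 (FDR 0.0463). vwf lost its call without WT7 replicate 2 (highest FDR 0.0681), stab1 without WT7 replicate 1 or WT7 replicate 2 (highest FDR 0.0604), cyp2n13 without WT0 replicate 1, MT0 replicate 1, MT0 replicate 2, WT7 replicate 2, MT7 replicate 1 or MT7 replicate 2 (highest FDR 0.119), and dock11 without WT0 replicate 1, MT0 replicate 1, WT7 replicate 1, WT7 replicate 2, MT7 replicate 1 or MT7 replicate 2 (highest FDR 0.153).

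A change of order between the genotypes was called at 26 genes, of which 18 were higher in MT0 and lower in MT7 and 8 the reverse. For the examples below, gpib, ca10a, fbxo25, and hmbsb, (TG7-TG0)-(WT7-WT0) was also called, at -1.92, -3.52, -3.28, and 1.93. In the same order, (MT7-MT0)-(TG7-TG0) was -1.27 (FDR 0.188), -0.60 (FDR 0.479), 1.51 (FDR 0.0117), and -0.57 (FDR 0.204). The only call against TG, that of fbxo25, thus had the opposite sign to its MT-WT value. gpib, a glucose phosphate isomerase, was the only called gene of 30 in glycolysis, against 1.97% of all genes. It had 61.2 and 70.09 CPM in MT7 and 337.9 and 176.5 CPM in MT0, against 306.6 and 268.6 CPM in WT7 and 93.6 and 152.8 CPM in WT0. It fell by 1.97 on the log2 scale in MT and rose by 1.22 in WT (response difference -3.19 ± 0.44, FDR 0.00991). ca10a, a catalytically inactive carbonic anhydrase relative, had 5.13 and 3.94 CPM in MT7 and 5.26 and 8.44 CPM in MT0, against 9.27 and 11.3 CPM in WT7 and 0.881 and 0.895 CPM in WT0, and fbxo25, an F-box protein of a ubiquitin ligase, had 20.9 and 21.6 CPM in MT7 and 8.03 and 8.3 CPM in MT0, against 42.9 and 37.3 CPM in WT7 and 4.75 and 4.25 CPM in WT0. In both, WT0 was lowest and WT7 highest, with response differences of -4.12 ± 0.40 (FDR 0.0022) and -1.78 ± 0.20 (FDR 0.00505). hmbsb, an enzyme of heme synthesis, went the other way, with 16.2 and 17.6 CPM in MT7 and 14.4 and 14.4 CPM in MT0, against 9.56 and 10.8 CPM in WT7 and 21.5 and 22.9 CPM in WT0 and a response difference of 1.36 ± 0.20 (FDR 0.0139). The calls of gpib, ca10a, and fbxo25 held in all 8 fits with 1 library left out, and hmbsb lost it without WT7 replicate 1 or WT7 replicate 2 (highest FDR 0.0566).

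At 40 genes, MT differed from WT in the same direction at both times, by unequal amounts. sulf2a, an extracellular sulfatase that trims heparan sulfate, had 16.9 and 17.9 CPM in MT7 and 59.98 and 55.1 CPM in MT0, against 9.46 and 8.75 CPM in WT7 and 6.44 and 6.71 CPM in WT0. MT was above WT at both times and fell by 1.72 on the log2 scale after amputation, while WT changed by 0.47 (response difference -2.19 ± 0.17, FDR 0.00135). cilp2, related to a cartilage matrix protein, had 65.0 and 72.0 CPM in MT7 and 26.1 and 35.7 CPM in MT0, against 23.1 and 30.4 CPM in WT7 and 0.136 and 0.522 CPM in WT0, near 0 in WT0 and, with 0.244 and 1.06 CPM, in TG0 (response difference -5.21 ± 0.60, FDR 0.00557). sat1a.1, a spermidine and spermine acetyltransferase, had 49.5 and 53.2 CPM in MT7 and 17.9 and 20.7 CPM in MT0, against 6.55 and 5.61 CPM in WT7 and 11.2 and 12.97 CPM in WT0. It was higher in MT at both times and rose in MT while it fell by 0.99 on the log2 scale in WT (response difference 2.40 ± 0.23, FDR 0.0022). The numbered symbol points to neighbouring gene copies, among which reads may be divided. cyp2ad6, a cytochrome P450, had 6.54 and 5.71 CPM in MT7 and 2.26 and 2.11 CPM in MT0, against 13.3 and 11.04 CPM in WT7 and 32.7 and 21.8 CPM in WT0, and noc2l, related to a nucleolar protein of ribosome assembly, had 10.97 and 9.73 CPM in MT7 and 7.46 and 7.18 CPM in MT0, against 17.2 and 19.6 CPM in WT7 and 34.9 and 35.8 CPM in WT0. Both were lower in MT at both times, with response differences of 2.65 ± 0.35 (FDR 0.00808) and 1.44 ± 0.22 (FDR 0.0171). The calls of sulf2a, cilp2, sat1a.1, and cyp2ad6 held in all 8 fits with 1 library left out, and noc2l lost it without WT7 replicate 1, WT7 replicate 2 or MT7 replicate 1 (highest FDR 0.0651).

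The lists of the proteasome, the mitochondria, and the ribosome held no called response difference. As 1.97% of all genes were called, lists of this size would hold few or no calls at that share. By edgeR, none of 37 proteasome genes was called, although the response difference was negative in all 37 (median -0.29) and 14 had an unadjusted p-value below 0.05. Over all 19014 genes, 9975 were negative and 3677 had an unadjusted p-value below 0.05. DESeq2 called 1 of the 37 genes and limma-voom 0. After amputation 18 of the 37 fell in MT and 2 in WT (6.48% and 11% of all genes), and the difference between these responses was called for none of them. psmb3, a core particle subunit, had 46.4 and 45.5 CPM in MT7 and 69.4 and 69.5 CPM in MT0, against 45.5 and 48.3 CPM in WT7 and 55.5 and 56.4 CPM in WT0. psmd7, a lid subunit, had 31.1 and 36.7 CPM in MT7 and 56.4 and 50.6 CPM in MT0, against 37.4 and 38.8 CPM in WT7 and 47.0 and 49.6 CPM in WT0. Both were highest in MT0, with response differences of -0.34 ± 0.13 (FDR 0.205) and -0.31 ± 0.17 (FDR 0.353). The smallest p-values of the list were those of psmb7 (43.5 and 43.9 CPM in MT7 and 87.1 and 73.3 CPM in MT0, against 55.0 and 51.7 CPM in WT7 and 63.4 and 62.0 CPM in WT0) and psmd8 (52.5 and 54.5 CPM in MT7 and 81.6 and 83.1 CPM in MT0, against 68.8 and 73.7 CPM in WT7 and 72.3 and 78.1 CPM in WT0), with FDRs of 0.0804 and 0.0893. Of 11 immunoproteasome and antigen presentation genes none was called (3 at an unadjusted p-value below 0.05, 1 by DESeq2, 0 by limma-voom). mhc1uka had 36.02 and 27.9 CPM in MT7 and 18.3 and 19.9 CPM in MT0, against 34.5 and 46.1 CPM in WT7 and 34.2 and 68.3 CPM in WT0, and b2ml, a light chain of MHC class I, had 1110 and 1161 CPM in MT7 and 1060 and 1104 CPM in MT0, against 1165 and 1188 CPM in WT7 and 1484 and 1669 CPM in WT0.

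For mitochondrial genes, there was no call by edgeR, DESeq2, or limma-voom among 69 mitochondrial ribosomal, 36 complex I, 17 ATP synthase, 26 complex III and IV, 22 TCA cycle, and 23 fatty acid oxidation genes. An unadjusted p-value below 0.05 was found for 1 gene of complexes III and IV and for none of the other 5 lists. Over all 19014 genes, it was found for 3677. The median response difference was 0.03 for the mitochondrial ribosome, -0.22 for complex I, -0.32 for ATP synthase, and -0.27 for complexes III and IV. The mitochondrial ribosome was lower in MT at both times to a like extent, with medians of -0.52 at 7 dpa and -0.54 before. ndufv1, the NADH-binding subunit of complex I, had 312.2 and 479.9 CPM in MT7 and 677.6 and 413.2 CPM in MT0, against 653.5 and 641.6 CPM in WT7 and 668.8 and 593.8 CPM in WT0, and ndufa6 of the same complex had 79.9 and 91.8 CPM in MT7 and 149.5 and 95.6 CPM in MT0, against 130.1 and 116.8 CPM in WT7 and 129.8 and 109.8 CPM in WT0. The ATP synthase subunit genes atp5d and atp5e had 219.2 and 315.1 CPM in MT7 and 510.7 and 334.8 CPM in MT0, against 468.6 and 424.9 CPM in WT7 and 562.5 and 525.4 CPM in WT0 and 176.1 and 217.2 CPM in MT7 and 388.9 and 261.8 CPM in MT0, against 271.8 and 248.2 CPM in WT7 and 361.0 and 305.3 CPM in WT0. MT7 had the lowest mean in these 4 genes, and MT0 replicate 1 was above MT0 replicate 2 in each.

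uqcr11 of complex III had 158.7 and 202.5 CPM in MT7 and 317.9 and 221.3 CPM in MT0, against 322.2 and 311.5 CPM in WT7 and 349.8 and 313.7 CPM in WT0, and cox6a1 of complex IV had 54.2 and 50.3 CPM in MT7 and 61.6 and 57.4 CPM in MT0, against 53.1 and 68.0 CPM in WT7 and 47.0 and 48.8 CPM in WT0. mdh1aa, a malate dehydrogenase, had 767.0 and 980.1 CPM in MT7 and 1355 and 831.4 CPM in MT0, against 1786 and 1579 CPM in WT7 and 1558 and 1515 CPM in WT0, and sdhb, the iron-sulfur subunit of succinate dehydrogenase, had 185.8 and 267.9 CPM in MT7 and 400.8 and 241.7 CPM in MT0, against 386.6 and 334.9 CPM in WT7 and 369.6 and 359.8 CPM in WT0. etfb, of electron transfer to the respiratory chain, had 157.0 and 289.5 CPM in MT7 and 365.1 and 231.9 CPM in MT0, against 567.7 and 482.9 CPM in WT7 and 476.9 and 479.5 CPM in WT0, and fabp3, a fatty acid-binding protein, had 626.9 and 1053 CPM in MT7 and 2034 and 994.2 CPM in MT0, against 1161 and 877.3 CPM in WT7 and 969.6 and 1023 CPM in WT0. The mitochondrial ribosomal genes mrps33 and mrpl21 had 20.7 and 24.7 CPM in MT7 and 40.2 and 27.6 CPM in MT0, against 33.3 and 33.0 CPM in WT7 and 58.9 and 67.1 CPM in WT0 and 14.2 and 15.8 CPM in MT7 and 23.6 and 18.5 CPM in MT0, against 17.8 and 16.7 CPM in WT7 and 31.0 and 34.0 CPM in WT0, with WT0 highest in both. None of 79 cytosolic ribosomal genes was called by any of the 3 tools or had an unadjusted p-value below 0.05. rpl11 had 551.9 and 522.5 CPM in MT7 and 747.8 and 637.8 CPM in MT0, against 558.7 and 555.8 CPM in WT7 and 581.7 and 551.0 CPM in WT0, and rps27.1 had 454.5 and 457.5 CPM in MT7 and 499.1 and 427.5 CPM in MT0, against 402.8 and 385.7 CPM in WT7 and 495.8 and 499.4 CPM in WT0, and the list median of the response difference was 0.01.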

How the data were processed

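RNA was sequenced from pools of 6 ventricular apices. Per the labels and the methods of the study, the authors aligned reads with STAR to GRCz10, counted reads per gene with featureCounts, and deposited the resulting counts, which are whole numbers and not normalized. Strand and multi-mapping settings are not given in the sources used here, so that values of near-identical paralogs and of overlapping genes are less certain. The counts name genes by symbol without coordinates. Group and replicate of each library follow the labels.

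From these counts, edgeR (version 4.0.16, R version 4.3.3) was used with TMM normalization, filterByExpr (minimum count 10, minimum total count 15), and quasi-likelihood tests, with 6 group means fitted to 12 libraries. P-values are two-sided and were adjusted with the Benjamini-Hochberg method over 19014 genes in each comparison. The study used DESeq2 with a threshold of 0.5 on log2 fold change. DESeq2 (version 1.42.0) and limma-voom (limma version 3.58.1) were alternatives, besides RLE size factors, no filter on low counts, only the 8 MT and WT libraries, a replicate block, other thresholds, and each library left out in turn. In the left-out fits, a group of 1 library is assumed to vary like the other groups. With 3 counts taken as the floor, a fold against a group at or below it is given from the counts with an exact interval, which covers counting error only.

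Gene lists and genes were chosen with earlier results of these data known. Named genes are nkx2.5, ect2, psmb3, and psmd7. For each class and direction, the 4 genes of smallest p-value were added that had a mean log2 CPM of at least 1, a non-provisional symbol, and a kept sign and fold with each library left out. Each list gave up to 3 called genes, or 2 uncalled genes of smallest p-value. In the TCA cycle list, 1 symbol (dld, the Notch ligand deltaD) was replaced by dldh after the values were seen. Results of some withheld genes are not reported here. Other called genes listed by name were chosen after their values were seen.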

Additional observations from a re-analysis of the deposited data

Results flagged for a closer look

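The response of the transgenic wild-type fish differed from that of the non-transgenic wild-type fish at many genes. In (TG7-TG0)-(WT7-WT0), 311 genes had a higher and 382 a lower response in TG (edgeR, FDR below 0.05 and absolute log2 fold change above 0.5), 3.64% of those tested. This contrast shares WT7 and WT0 with the MT-WT response difference. It was called lower at 77 of the 287 genes (2.01% of all genes) and higher at 37 of the 88 genes (1.64%). The values of named genes with a call follow. Among matrix genes, its log2 value was -1.26 for sulf2a, -1.0 for col1a1b, -1.21 for sparc, -2.01 for postnb, -1.05 for col1a2, and -1.10 for plod2. Other genes with a lower response in TG had -3.52 for ca10a, -1.92 for gpib, -3.28 for fbxo25, and -2.08 for znf326. Among clock genes, it was 2.07 for bhlhe40, 2.47 for nr1d2b, and 1.71 for nfil3-6. Other genes with a higher response in TG had 1.93 for hmbsb, 3.60 for cyp2n13, 5.33 for myh6, 0.96 for stip1, and 1.82 for hspd1. Of these, hspd1 and stip1 had no called MT-WT response difference. With 2 libraries per group, no check for a single deviating library could be made within groups.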

How the results depend on the processing

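All 375 response differences kept their sign and a log2 fold change above 0.5 in size with RLE size factors, DESeq2, limma-voom, no filter on low counts, only the 8 MT and WT libraries, the replicate block, and each library left out, but how many were called varied. Against 287 lower, 88 higher, 267 starting level only, 42 injured level only, and 66 both in the fit reported, DESeq2 called 751 lower, 437 higher, 782 starting level only, 166 injured level only, and 178 both, and limma-voom 147 lower, 38 higher, 121 starting level only, 21 injured level only, and 43 both. With only the 8 MT and WT libraries, the calls were 57 lower, 24 higher, 53 starting level only, 10 injured level only, and 18 both. An FDR below 0.1 gave 721 lower, 289 higher, 680 starting level only, 128 injured level only, and 166 both, and an FDR below 0.5 gave 3382 lower, 2928 higher, 3238 starting level only, 898 injured level only, and 1683 both. RLE size factors gave 308 and no filter on low counts 531 calls. With 1 library left out, the calls ranged over 53 to 923 lower, 11 to 1010 higher, 48 to 1486 starting level only, 4 to 141 injured level only, and 12 to 233 both, lowest without a WT7 library in each and highest without WT0 replicate 2. The cause was not tested. No named gene reversed its direction in a called value. Kept signs, here and for the 375 genes, were largely set in advance, as the fits share counts and the genes were selected by their calls. Genes named by class were also chosen for a kept sign. Of 56 named genes with a call, 21 were called in all 8 left-out fits.

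Same-numbered replicates are different pools, and their deviations correlated at -0.23 between MT0 and MT7, 0.05 between WT0 and WT7, 0.07 between MT0 and WT0, -0.20 between MT7 and WT7, -0.13 between MT7 and WT0, and 0.30 between MT0 and WT7. As 1 of these 6 values was above 0.1, the numbers were not taken to pair the samples. With a replicate block, 258 genes were called (197 lower, 61 higher, 182 starting level only, 27 injured level only, and 49 both), and with the block in only the 8 libraries 43 (35 lower, 8 higher, 28 starting level only, 2 injured level only, and 13 both). A crossed pairing of the MT7 libraries, chosen after seeing the data, gave 366. Depth limits the genes near the floor, as 17 of the 287 and 12 of the 88 genes had a group with 3 or fewer counts in each library. With such groups set to the floor, the median WT response of the 287 genes was 1.54 in place of 1.55, and that of the 88 genes -1.23 in place of -1.26.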
